A study of Mus musculus with 6 samples.

Results

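The genes of the urea cycle and of ammonia handling were followed in livers of male mice that lack Gα12 (Gα12 KO, here KO) and of wild-type (WT) male mice. The set holds 10 genes: Nags, Cps1, Otc, Ass1, Asl, Arg1, Slc25a15, Slc25a13, Gls2 and Glud1. Members were chosen by name, as every non-control array probe whose accession belongs to one of these genes in RefSeq (assembly GRCm38.p6). This gave 13 of the 55681 probes on the array, for 10 of the 20284 genes that could be named. Otc, Ass1 and Glud1 had 2 probes each, and the other 7 genes had 1 probe each.

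RNA of 3 KO livers and 3 WT livers was hybridised to Agilent mouse arrays in 1 colour, with 1 array per sample. Each sample is taken here as the liver of 1 mouse, though the labels say only that the samples are separate. All 6 mice were males of 8 weeks on a chow diet, taken after an overnight fast, on a mixed C57BL/6 and 129/Sv strain that was 95% C57BL/6. Gα12 is the α subunit of a G protein that acts downstream of cell surface receptors and is encoded by Gna12. The sources used here do not describe the knockout allele further. The Gna12 probe was at log2 levels of -4.91, -4.62 and -3.47 in the KO livers and -3.48, -4.55 and -0.89 in the WT livers, and only WT replicate 3 was well above background, and the part of Gna12 that was deleted is not given, so the probe is no firm check of the labels.

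In the liver, ammonia released from amino acids is joined with bicarbonate inside the mitochondria, carried through a cycle of enzymes that spans mitochondria and cytosol, and excreted as urea. The cycle is known to be strongest in periportal hepatocytes, which also free ammonia from glutamine, whereas pericentral hepatocytes capture what is left by making glutamine. Fasting, glucagon and glucocorticoids are known to raise the urea cycle enzymes, and both groups were fasted.

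Levels below are given as log2 signal with the array's own 75th percentile set at 0, each difference is KO minus WT on that scale, and n is 3 livers per group unless livers are said to be left out. The number of arrays limits the precision. Levels of different probes are not set against each other, because each probe has its own brightness. In whole tissue, fewer cells of a type and less RNA per cell cannot be told apart. All 13 probes were well above background on at least 3 arrays and so were kept among the 23132 probes tested, and 12 of the 13 were well above background on all 6 arrays.

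The WT livers were not alike, which touches every result below. Across kept probes, WT replicate 3 correlated with the KO livers at r = 0.966 to 0.982, whereas WT replicates 1 and 2 correlated with them at 0.869 to 0.930 and with each other at 0.973. The 7 probes of Gapdh, a glycolytic enzyme gene, spread over 4.36 to 4.87 log2 units on the KO arrays, and over 9.58, 7.79 and 4.01 units on WT replicates 1, 2 and 3. All 6 arrays shared 1 slide and 1 scan date. KO arrays were in row 2 and WT arrays in row 1, so that genotype cannot be told apart from slide row. Non-uniform spots numbered 98 to 158 on KO arrays and 2 to 6 on WT arrays. Probes well above background numbered 20953 to 22585 on KO arrays, and 22951, 23530 and 28752 on WT replicates 1, 2 and 3. Hepatocyte markers were bright throughout: the median level of 6 of them was 9.52 to 9.90 in KO livers and 9.24 to 10.39 in WT livers.

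No urea cycle or ammonia gene was called as different between the genotypes in the test over the whole array. Limma called 0 of the 13 probes at an adjusted p below 0.05 (percent of all kept probes called: 0). In simulated data both groups were given the pooled spread of the KO and WT livers, although the WT livers in fact varied more. Each probe was drawn on its own. There the same test recovered none of the built-in differences of 2 log2 units. The lack of calls therefore does not show that the levels were equal. At an unadjusted p below 0.05, 2 of the 13, those of Arg1 and Slc25a15, were higher in the KO and 0 were lower. Of all kept probes 5.62% were higher and 15.4% lower at that p. Slc25a15 was well above background on 4 arrays, without WT replicates 1 and 2, so it passed the filter largely through livers where it was high. What the probes showed instead was a division within the WT group, in which WT replicate 3 resembled the KO livers and WT replicates 1 and 2 did not.

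**Figure D1:**
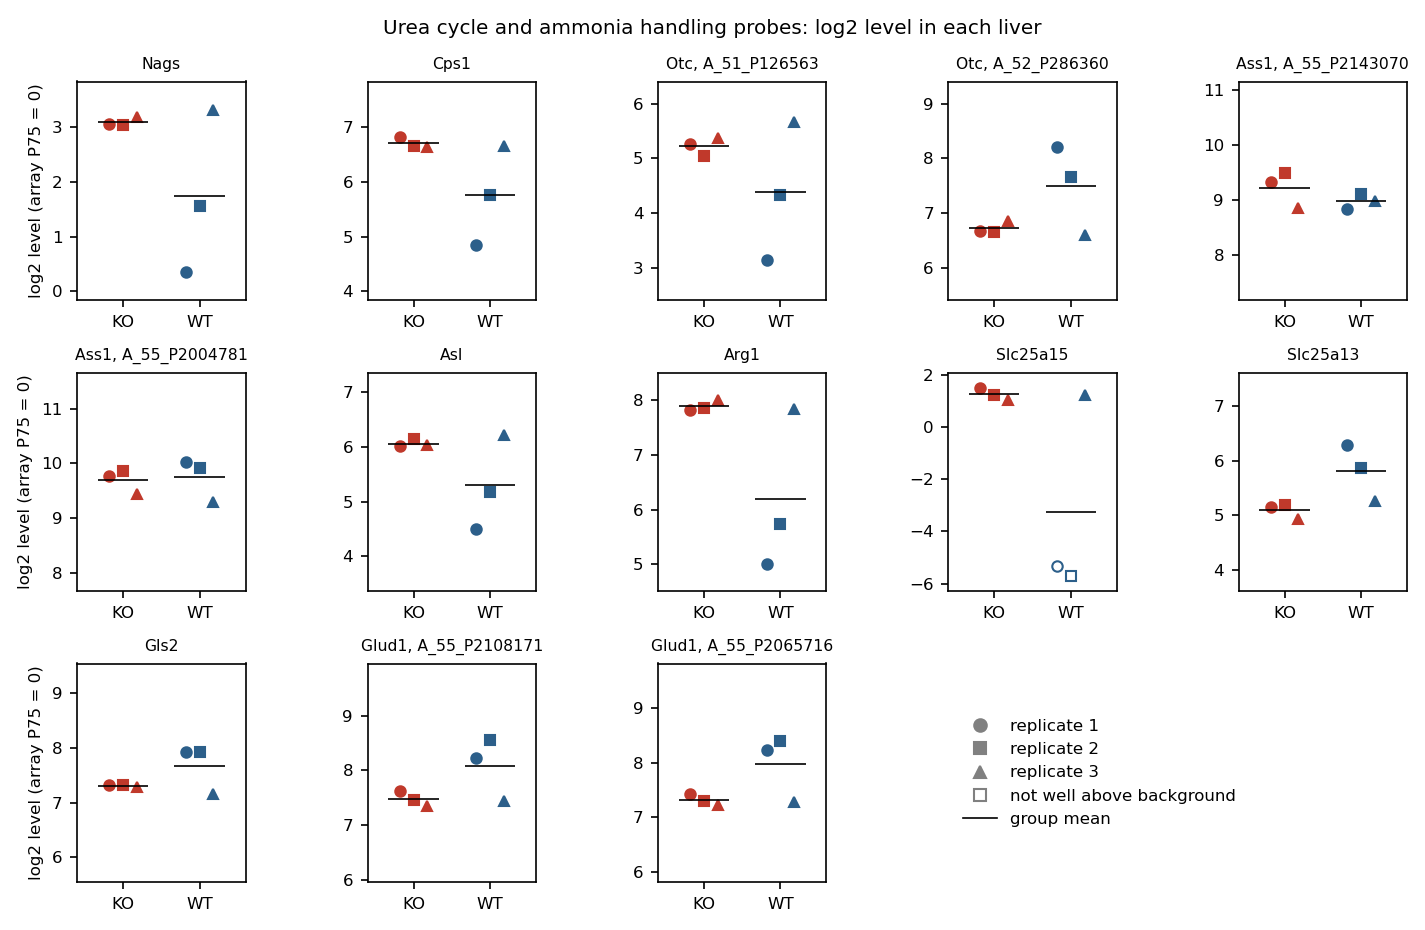
Log2 level of each of the 13 probes in the 3 KO livers (left, red) and the 3 WT livers (right, blue), 1 panel per probe, with the 75th percentile of each array at 0. The vertical span is the same in all panels except that of Slc25a15, which is wider. The WT livers lie far apart for most probes, with replicate 3 near the KO livers, and open symbols mark the arrays on which Slc25a15 was not well above background.

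The cycle is switched on by N-acetylglutamate, which the mitochondrial enzyme of Nags makes and which activates carbamoyl phosphate synthetase, the product of Cps1 and the rate-limiting entry of ammonia. The probe of Nags was at 3.06, 3.03 and 3.18 in KO livers, against 0.35, 1.56 and 3.32 in WT livers. The KO livers differed by no more than 0.15, and WT livers lay on either side of them, so the groups overlapped. The difference was 1.35 (SE 0.69, limma adjusted p = 0.253). For Cps1 the levels were 6.82, 6.65 and 6.64 in KO livers, against 4.85, 5.75 and 6.66 in WT livers. WT replicates 1 and 2 were below all KO livers, and WT replicate 3 was among them. Cps1 differed by 0.95 (SE 0.48, limma adjusted p = 0.251).

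Ornithine transcarbamylase, the product of the X-linked gene Otc, joins carbamoyl phosphate to ornithine to form citrulline in the mitochondria. The 2 Otc probes ran in opposite directions within the WT group. Probe A_51_P126563 had 5.26, 5.05 and 5.38 in KO livers, against 3.14, 4.34 and 5.67 in WT livers. Probe A_52_P286360, of the same transcript accession, had 6.66, 6.65 and 6.86 in KO livers, against 8.21, 7.66 and 6.60 in WT livers. In WT replicate 1 the first probe was thus 2.09 below the KO mean and the second 1.49 above it, while in WT replicate 3 they were 0.44 above and 0.13 below it. Their differences between the genotypes were of opposite sign, 0.85 (SE 0.61) and -0.77 (SE 0.45), with limma adjusted p-values of 0.354 and 0.289, and the mean over both probes differed by 0.04 (SE 0.29).

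Probe A_51_P126563 was printed in 10 spots on every array, which shows how well 1 array repeats itself. The SD between spots was 0.02 to 0.04 on KO arrays and 0.03 to 0.11 on WT arrays, before 1 outlier spot was left out on WT replicate 1. The livers spanned 0.33 log2 units in the KO and 2.54 in the WT for this probe. Error between arrays, from labelling or hybridisation, is not part of the SD between spots and was not measured.

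In the cytosol, argininosuccinate synthetase (Ass1) joins citrulline to aspartate and argininosuccinate lyase (Asl) splits the product into arginine and fumarate. The Ass1 probes had the 2 smallest WT ranges of the 13, 0.27 and 0.74, the larger close to the 0.77 of Gls2. Probe A_55_P2143070 had 9.33, 9.49 and 8.84 in KO livers, against 8.83, 9.10 and 8.98 in WT livers. Probe A_55_P2004781 had 9.78, 9.86 and 9.44 in KO livers, against 10.03, 9.92 and 9.29 in WT livers. Both sets of values overlapped between genotypes. The differences were 0.25 (SE 0.32) and -0.06 (SE 0.34), with limma adjusted p-values of 0.591 and 0.917, and 95% intervals of -0.50 to 1.0 and -0.86 to 0.74. The sign of the second turned to 0.25 under median scaling, in which arrays were aligned on probes seen on all 6, and to 0.15 after quantile normalization.

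Asl was at 6.01, 6.14 and 6.03 in KO livers, against 4.49, 5.17 and 6.23 in WT livers. WT replicate 3 was the highest of all 6 livers, and WT replicates 1 and 2 were the lowest. The difference was 0.76 (SE 0.46, limma adjusted p = 0.300). Asl lies on chromosome 5, as does Gna12, with 279 RefSeq genes between them, and is the only gene of the set on that chromosome.

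Arginase 1 (Arg1) splits arginine into urea and ornithine and closes the cycle. Its probe had 7.82, 7.85 and 8.00 in KO livers, against 5.01, 5.75 and 7.84 in WT livers. The KO mean was 7.37-fold above WT replicate 1 and 4.42-fold above WT replicate 2, but only 1.04-fold above WT replicate 3, which lay inside the KO range. Arg1 differed by 1.69 (SE 0.68, limma adjusted p = 0.235), with SDs of 0.10 in KO and 1.47 in WT livers.

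Ornithine must return to the mitochondria, through the ornithine carrier encoded by Slc25a15. Slc25a15 gave the widest gap among the 13 probes. It had 1.5, 1.25 and 1.04 in KO livers, against -5.34, -5.70 and 1.24 in WT livers. In WT replicates 1 and 2 it was not well above background, so its fold against those livers is not known. Set against the lowest level of any probe well above background on those arrays, the KO mean was 91.1-fold and 114-fold higher at this scaling. These folds are not lower bounds. Other probes at higher levels there, such as that of Nfya at -2.92 and -4.09, were also not well above background. For Slc25a15, WT replicate 3 differed from the KO mean by only -0.03. The fitted difference of 4.53 (SE 1.66, limma adjusted p = 0.235) rests on those dim arrays, and after normexp background correction it was 2.25 (SE 0.85).

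The aspartate that enters at Ass1 is exported from mitochondria by citrin, the aspartate-glutamate carrier encoded by Slc25a13. Its probe had 5.15, 5.18 and 4.94 in KO livers, against 6.28, 5.87 and 5.26 in WT livers. This was the only one of the 13 probes whose groups did not overlap, with every KO liver below every WT liver. Such a separation was common on the array, at 18.8% of kept probes with KO below WT and 5.52% with KO above WT. WT replicate 3 was 0.17 above the KO mean, against a range of 0.25 among the KO livers. The difference was -0.71 (SE 0.36, limma adjusted p = 0.252).

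Ammonia itself comes in part from glutamine, through liver glutaminase (Gls2), and from glutamate, through glutamate dehydrogenase (Glud1), both mitochondrial. Here WT replicates 1 and 2 lay above the KO livers. Gls2 had 7.32, 7.33 and 7.28 in KO livers, against 7.92, 7.93 and 7.15 in WT livers, and its difference was -0.36 (SE 0.34, limma adjusted p = 0.470). After quantile normalization that difference was 0.16, so its direction depends on the scaling. Glud1 probe A_55_P2108171 had 7.62, 7.46 and 7.35 in KO livers, against 8.23, 8.56 and 7.45 in WT livers. Glud1 probe A_55_P2065716 had 7.43, 7.29 and 7.22 in KO livers, against 8.23, 8.40 and 7.28 in WT livers. Unlike those of Otc, the Glud1 probes gave nearly the same values relative to the KO mean on every WT array, within 0.17. Their differences were -0.60 (SE 0.38) and -0.66 (SE 0.38), with limma adjusted p-values of 0.308 and 0.290.

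Several of these differences moved by over 1.5 times with the processing or with 1 liver. Without WT replicate 1 the difference was 0.65 for Nags, 0.49 for Cps1, 0.36 for Asl, 1.10 for Arg1, 0.22 and -0.40 for the Otc probes, -0.47 for Slc25a13 and -0.23 for Gls2. Without WT replicate 2 it was -0.23 for Gls2 and -0.36 and -0.44 for the Glud1 probes. Median scaling raised the positive and negative differences alike, and quantile normalization raised all but that of Slc25a15. The negative differences shrank or turned positive under both. After quantile normalization they were -0.07 and -0.13 for Glud1, -0.22 for Slc25a13 and -0.24 for Otc probe A_52_P286360, and under median scaling -0.30 and -0.35, -0.41 and -0.46 in the same order. Among the positive ones, quantile normalization gave 1.43 for Cps1, 1.25 for Asl and 0.63 for Ass1 probe A_55_P2143070.

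With the Gapdh probe spread of each array as a covariate, the differences came nearer to 0 for 12 of the 13 probes. They were 0.08 for Nags, 0.20 for Cps1, 0.03 for Asl, 0.44 for Arg1 and 1.45 for Slc25a15. For the other genes they were -0.23 and -0.08 for Otc, -0.27 for Slc25a13, 0.0018 for Gls2 and -0.20 and -0.19 for Glud1, while Ass1 had 0.23 and 0.30. That covariate is high only in WT replicates 1 and 2, so the fit also takes up anything else that sets those livers apart.

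Across the 13 probes, 7 differences were positive and 6 negative, and the median was 0.25, against -0.38 over all kept probes. Relative to that median of all probes, 9 were above and 4 below. The median over all kept probes itself was -0.08 under median scaling, so the balance of signs is set in part by the scaling.

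How much the result turned on the WT livers was measured by leaving them out. Without WT replicate 3, limma called 11 of the 13 probes, from 9 of the 10 genes, 6 as higher in the KO and 5 as lower, and only the Ass1 probes were not called. Over all kept probes 56.7% were called in that fit, 15.5% as higher and 41.2% as lower, so a call there was usual for any probe. The adjusted p-values of the 11 probes in limma ran from 0.000768 for Slc25a15, with a difference of 6.78 (SE 0.24), to 0.0304 for Gls2, with -0.62 (SE 0.18). For Slc25a15 both WT livers left in that fit were not well above background, so its difference and its SE rest on values at the floor. With WT replicate 3 as the only WT liver, limma called 0 of the 13, with 0 at an unadjusted p below 0.05 (7.37% of all kept probes), and adjusted p-values of 0.683 to 0.981. That fit assumes that the lone WT liver varies as the KO livers do. Its differences ran from -0.44 for Otc probe A_51_P126563, with a 95% interval of -1.07 to 0.18, to 0.40 for Ass1 probe A_55_P2004781, with an interval of -0.31 to 1.11. For Arg1 the interval was -0.50 to 0.60 and for Cps1 -0.51 to 0.59. A smaller difference between KO and this WT liver was thus not detectable here, and these intervals do not show that the levels were equal.

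**Figure D2:**
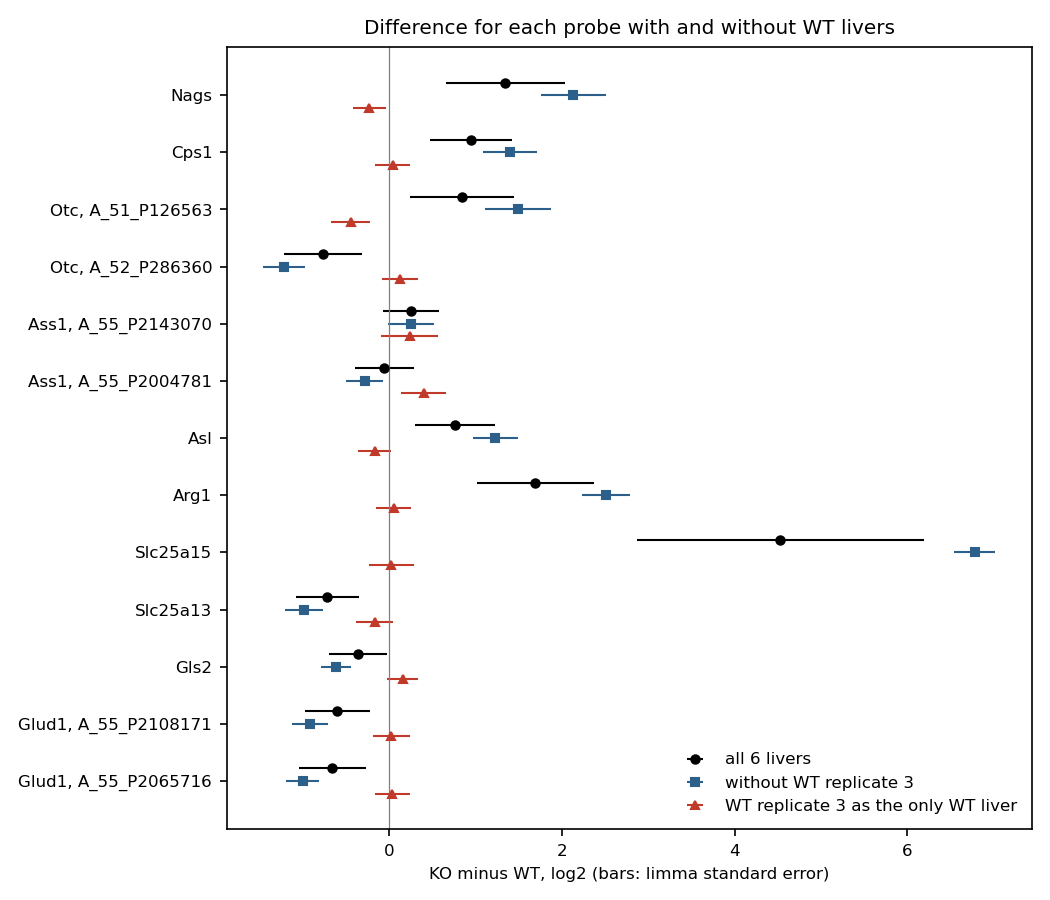
Difference of KO minus WT (log2, horizontal axis) for each of the 13 probes with its limma standard error, from all 6 livers (black circles), without WT replicate 3 (blue squares) and with WT replicate 3 as the only WT liver (red triangles). The blue squares lie farther from 0 than the black circles in the same direction for all 13 probes, and all red triangles lie between -0.44 and 0.40.

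The distance of each WT liver from the KO mean could be read against the whole array. In WT replicate 1, 8 of the 13 probes were more than 1 log2 unit from the KO mean, against 55.9% of all kept probes. By direction 6 were that far below (46.2%, against 17.3% of kept probes) and 2 above (15.4%, against 38.6%). WT replicate 2 had 5 of 13 that far away, against 43.0% of kept probes, and WT replicate 3 had 0 of 13, against 8.38%. In WT replicate 2, 3 were that far below (23.1%, against 14.0%) and 2 above (15.4%, against 28.9%). The shares regardless of direction were near those of the array, and the shares by direction were not tested. WT replicates 1 and 2 were both below the KO range for 6 of 13 probes and above it for 6, while over all kept probes 22.4% were below and 51.3% above. The 6 that were below are those of Nags, Cps1, Asl, Arg1 and Slc25a15 and Otc probe A_51_P126563. WT replicate 3 was inside the KO range for 6 of 13 probes, and inside it for 41.9% of all kept probes.

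**Figure D3:**
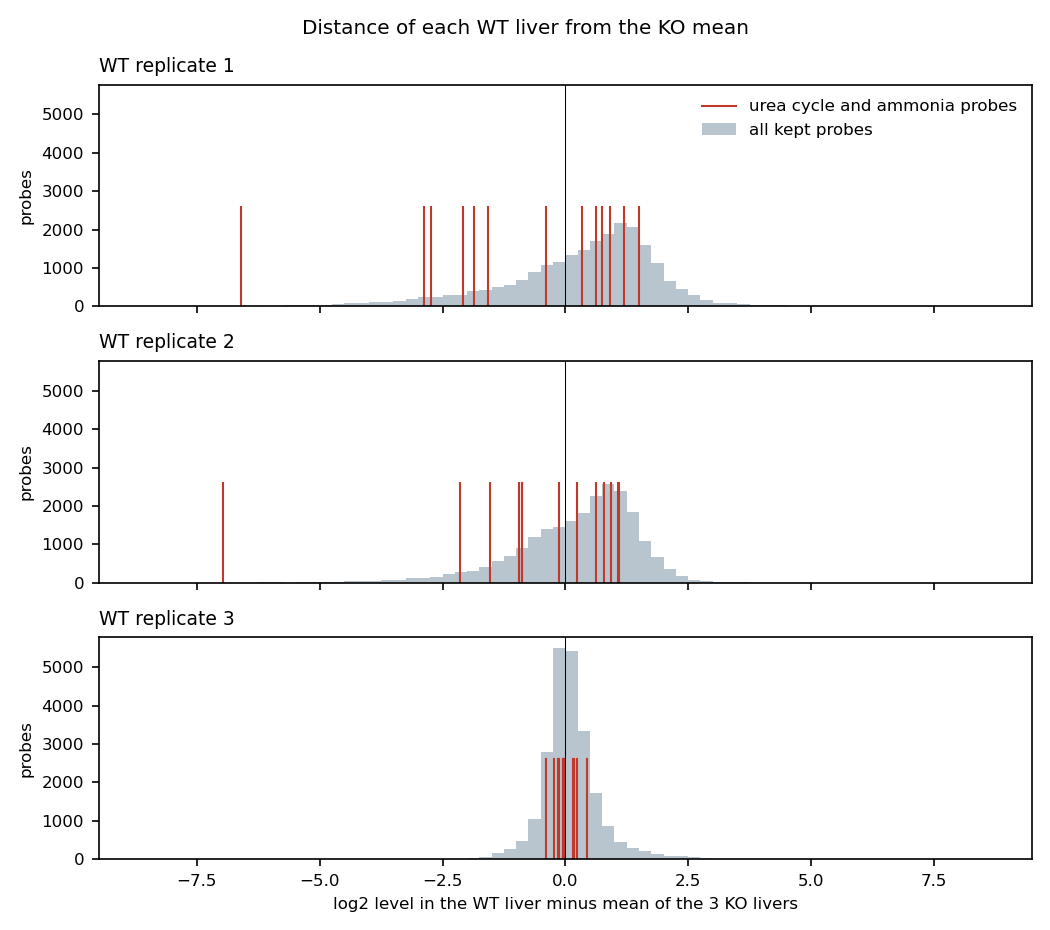
Number of kept probes (vertical axis) by the log2 level in a WT liver minus the mean of the 3 KO livers (horizontal axis), 1 panel per WT liver, with the 13 urea cycle and ammonia probes as red lines of arbitrary height. The red lines span -6.60 to 1.49 in WT replicate 1 and -6.96 to 1.09 in WT replicate 2, but -0.40 to 0.44 in WT replicate 3.

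Among the KO livers the 13 probes were tight, with SDs of 0.02 (Gls2) to 0.34 (Ass1 probe A_55_P2143070) and a median of 0.12, against a median of 0.22 over all kept probes. In WT livers the median SD was 0.82 for the 13 probes and 0.65 for all kept probes. The median absolute distance of WT replicate 3 from the KO mean was 0.16 over the 13 probes and 0.27 over all kept probes. These comparisons were not matched for brightness. Well above background on all 6 arrays were 12 of the 13 probes, but 17802 of the 23132 kept probes.

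The disagreement of the Otc probes was measured against other genes with several kept probes, 2737 in all. The probes' distances from the KO mean lay 3.58 log2 units apart in WT replicate 1 for Otc, 0.73 for Ass1 and 0.17 for Glud1, against a median of 1.34 over those genes. In WT replicate 2 they lay 1.83 apart for Otc, 0.35 for Ass1 and 0.01 for Glud1, against a median of 0.94. In WT replicate 3 the Otc probes were 0.57 apart, against a median of 0.30. Genes with probes more than 1 log2 unit away on both sides of the KO mean made up 14.7% in WT replicate 1, 9.06% in WT replicate 2 and 0.110% in WT replicate 3. The Gapdh probes lay 5.07, 3.28 and 0.68 apart in WT replicates 1, 2 and 3.

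Genes whose pattern over the 6 livers was most like a member's were found by the root mean square difference of log2 levels, each centred on its own mean, among 11940 other named genes. For Cps1 these were Tmed4, Acvr2a and Ist1, at 0.06, 0.07 and 0.08, and Asl, at 0.14, was the nearest of the set, in place 50. For Arg1 they were Ftsj3, Wdr18 and Adsl, at 0.05, 0.07 and 0.08, and Nags, at 0.22, came in place 39. For Slc25a15 they were Zhx1, Igsf11 and Rassf3, at 0.14, 0.34 and 0.38, and Arg1, at 2.05, was the nearest of the set, in place 338. In WT replicates 1 and 2 these 3 genes were at -5.36 to -5.73, near the lowest levels of those arrays (-5.41 and -5.75), as Slc25a15 was, so this likeness is in large part one of values at the floor. Adsl encodes adenylosuccinate lyase, an enzyme of purine synthesis.

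The promoters of Slc25a15, Nags and Otc are shown because these genes had low values in WT replicates 1 and 2, for Otc by 1 probe only. RefSeq's table (GRCm38.p6) held a promoter for 6 of the 10 genes, as 7 windows. The 250 bases before the start are printed 5′ to 3′, for Slc25a15 at chr8:22398622-22398871 on the minus strand (the upstream start of the 2 that the table gives), for Nags at chr11:102145263-102145512 on the plus strand and for Otc at chrX:10252055-10252304 on the plus strand. Capitals mark matches, on either strand, to any of 6 motifs. These were the C/EBP motif TTGCNNAA, the GC box with the letters GGGCGG, the core of the cAMP response element with the letters TGACG, the TATA box with the letters TATAAA, the core of the glucocorticoid response element with the letters TGTTCT, and the CCAAT box, named by its own letters.
Slc25a15: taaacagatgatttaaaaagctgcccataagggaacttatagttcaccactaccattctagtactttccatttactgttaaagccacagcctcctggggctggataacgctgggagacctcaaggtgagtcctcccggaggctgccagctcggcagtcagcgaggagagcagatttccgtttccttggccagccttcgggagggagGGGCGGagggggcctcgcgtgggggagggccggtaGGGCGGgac
Nags: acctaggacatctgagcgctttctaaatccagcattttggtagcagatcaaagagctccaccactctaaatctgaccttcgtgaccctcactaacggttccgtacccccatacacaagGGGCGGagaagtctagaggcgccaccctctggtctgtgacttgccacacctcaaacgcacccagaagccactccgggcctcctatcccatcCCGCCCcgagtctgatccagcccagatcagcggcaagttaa
Otc: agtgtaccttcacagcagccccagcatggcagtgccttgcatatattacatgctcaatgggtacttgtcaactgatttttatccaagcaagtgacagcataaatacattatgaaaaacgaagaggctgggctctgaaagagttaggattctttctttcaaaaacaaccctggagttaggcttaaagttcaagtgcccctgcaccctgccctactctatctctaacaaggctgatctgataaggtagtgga
The GC box was matched 2 times in the Slc25a15 window and 2 times in the Nags window, and 32.7% of all 32851 windows of this length hold it. None of the 6 motifs was matched in the Otc window, which says only that these letters are not there. No other motif of the 6 was matched in the Slc25a15 and Nags windows. By composition, G and C made up 57.6% of the Slc25a15 window, 55.6% of the Nags window and 43.6% of the Otc window, against a median of 52.4% over all windows.

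Genes that share substrates with the cycle were taken from a list of 43, of which 39 had a kept probe, each represented by its brightest. Limma called 0 of the 39, while 2 were higher and 4 lower at p below 0.05 before adjustment, against 3.98% and 16.6% of all genes, and the median difference was -0.45 against -0.49 over all genes. Every KO liver was above every WT liver for 4 of the 39 and below for 6, against 4.42% and 21.1% of all genes. Without WT replicate 3, limma called 6 of the 39 as higher and 17 as lower, against 11.5% and 50.6% of all genes. Glul, the glutamine synthetase gene of pericentral hepatocytes, was nearly level, with 6.05, 6.15 and 5.99 in KO livers and 6.10, 6.06 and 5.80 in WT livers (difference 0.08, SE 0.30, limma adjusted p = 0.865). Car5a, the mitochondrial carbonic anhydrase that supplies bicarbonate to Cps1's enzyme, had 4.95, 5.06 and 4.91 in KO livers and 4.57, 5.0 and 5.21 in WT livers, which overlapped.

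Oat, the ornithine aminotransferase gene, had 6.53, 5.73 and 5.69 in KO livers and 6.30, 6.69 and 6.85 in WT livers. Got1, the cytosolic aspartate aminotransferase gene, had 7.12, 6.44 and 6.51 in KO livers and 7.42, 8.23 and 6.68 in WT livers. Neither was called by limma (adjusted p = 0.286 for Oat and 0.301 for Got1). Arg2 was below the filter on dim probes. Of the 4 neighbours with the lowest p, Tat (tyrosine aminotransferase) had a difference of 1.39 (SE 0.46). Amt, of the glycine cleavage system, was not well above background in WT replicates 1 and 2, so its fitted difference of 3.58 (SE 1.16) rests on values at the floor. Like Slc25a15, Amt passed the filter largely through livers where it was high. In the other direction, the amino acid transporter gene Slc38a4 differed by -1.13 (SE 0.42) and the water and ammonia channel gene Aqp8 by -1.30 (SE 0.48), and all 4 had a limma adjusted p of 0.235.

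Of 20 regulators known to act on urea cycle genes, most of them transcription factors or receptors, 19 were kept. Limma called 0 of them, while 2 were higher and 3 lower at p below 0.05 before adjustment, against the same 3.98% and 16.6% of all genes, and their median difference was -0.46 against -0.49. Cebpa encodes C/EBPα, a factor on which hepatic expression of several urea cycle enzymes is known to depend in mice. Its levels were 4.32, 4.42 and 4.48 in KO livers, against 0.51, 1.40 and 4.48 in WT livers, so that WT replicates 1 and 2 were below all KO livers. Those livers were both below the KO range for 6 of the 13 member probes and both above it for 6. Over all kept probes these shares were 22.4% and 51.3%. A link of Cebpa to the member genes was not tested. Cebpa differed by 2.28 (SE 0.92, limma adjusted p = 0.235). Cebpb had 5.91, 6.03 and 5.88 in KO livers, against 4.44, 5.32 and 5.21 in WT livers, without overlap. Hnf4a had 7.39, 7.58 and 7.53 in KO livers, against 7.83, 8.13 and 6.92 in WT livers, and the glucagon receptor gene Gcgr had 7.08, 7.21 and 7.32 in KO livers, against 8.51, 8.21 and 7.16 in WT livers. All KO livers were above all WT livers for 1 of the 19, Cebpb, and below for 6, against 4.42% and 21.1% of all genes. The 6 were Nr1h4, Ctnnb1 and Rora, named after their values were seen, and 3 others. These were Nr3c1, the glucocorticoid receptor gene, which differed by -1.58 (SE 0.45), Creb1, by -1.68 (SE 0.52), and the S6 kinase gene Rps6kb1, by -1.18 (SE 0.45). Each had a limma adjusted p of 0.235. Creb1 was well above background on only 3 arrays, WT replicates 1 and 2 among them, so it passed the filter largely through livers where it was high. Its KO livers were at -4.34, -4.03 and -3.55, so its difference rests on dim values.

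**Figure D4:**
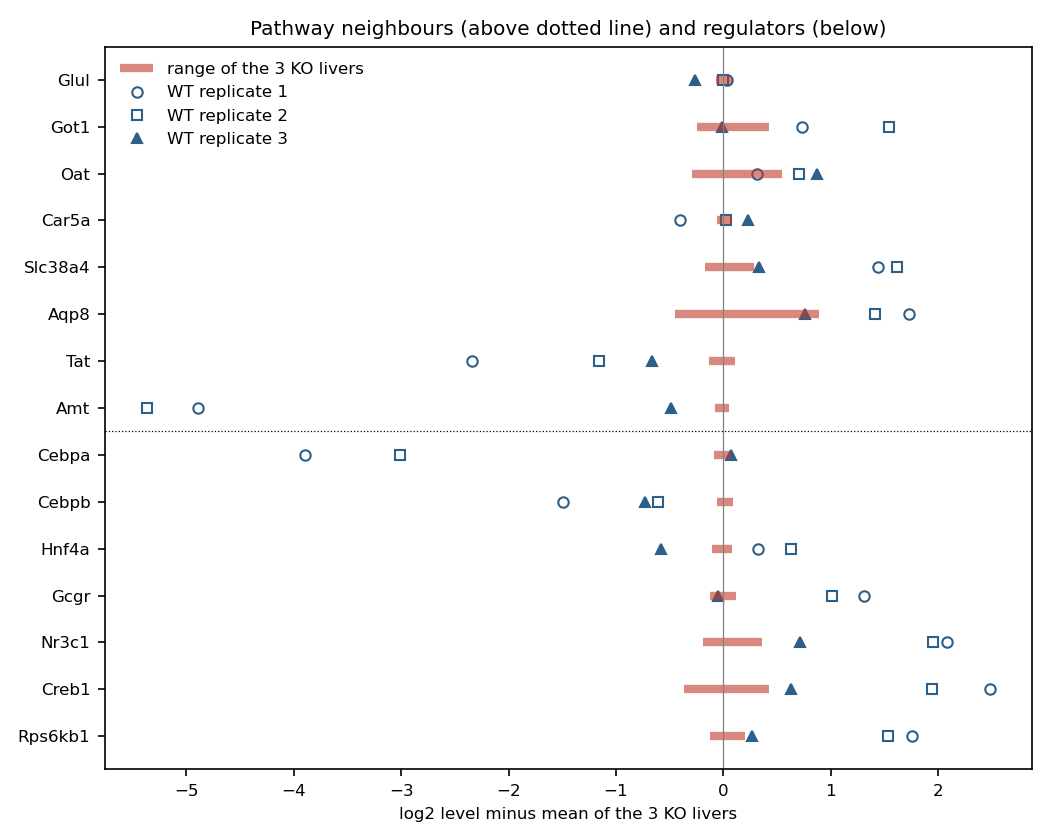
Log2 level in each WT liver minus the mean of the 3 KO livers (horizontal axis) for 8 pathway neighbours and 7 regulators, with the range of the 3 KO livers as a red bar. WT replicate 3 (filled triangles) lies within 0.87 of the KO mean for all 15 genes, while WT replicates 1 and 2 (open symbols) reach -3.89 for Cebpa. The 2 open symbols of Amt were not well above background and mark the floor of their arrays.

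Markers of liver zones gave no call in limma. Of them, Gls2 is a member of the set, and Hal, Sds, Glul, Oat, Rhbg and Slc1a2 are on the list of neighbours. The zone markers are thus no separate measure from those genes. The summed linear signal of 6 periportal markers was 1289 to 1529 in KO livers and 1066 to 1671 in WT livers, and that of 7 of 8 pericentral markers 1046 to 1330 in KO livers and 977 to 1638 in WT livers. Of the periportal markers 0 had an unadjusted p below 0.05, and of the pericentral markers 1 of 7 did, as higher in the KO, against 3.98% of all genes higher and 16.6% lower. That was Cyp1a2, with 5.16, 5.25 and 4.85 in KO livers and 2.31, 3.75 and 4.73 in WT livers. Of the markers of other cells, the summed signal of 6 Kupffer cell markers was 72.9 to 87.3 in KO livers and 151, 143 and 68.0 in WT replicates 1, 2 and 3. That of 5 of 6 stellate cell markers was 66.9 to 86.9 in KO livers and 145, 129 and 86.3 in the WT livers. Such sums follow the brightest probe most, which was that of Dcn for stellate, of Cyp2e1 for pericentral and of Cyp2f2 for periportal markers. In WT replicates 1 and 2, Dcn, Lrat and Col1a1 were above all KO livers, but Des was below them. Col1a2 was below all KO livers in WT replicate 1 and among them in WT replicate 2. Of the Kupffer cell markers, Cd5l, Csf1r, Adgre1 and Clec4f were above all KO livers in WT replicates 1 and 2. Marco was among the KO livers in both, and Timd4 in WT replicate 1 only. The median Kupffer marker was 0.62 above the KO mean in WT replicate 1 and 0.85 in WT replicate 2, and the median stellate marker 0.67 and 0.81, while the median of all kept probes was 0.64 and 0.49 above it in those livers. The sum of 5 endothelial markers was 88.7 to 116 in KO livers and 129, 102 and 101 in WT livers. That of 3 of 4 lymphocyte markers was 4.30 to 6.70 in KO livers and 5.69, 3.64 and 4.09 in WT livers, so both sums overlapped. In WT replicates 1 and 2, Stab2, Clec4g and Lyve1 of the endothelial markers were above all KO livers, but Kdr and Pecam1 were below them. The 2 of 4 erythroid markers that were kept summed to 262 to 305 in KO livers and 473, 524 and 289 in WT livers. The part of these cells in the values of the urea cycle genes was not tested.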

How the data were processed

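Liver RNA (0.5 µg per sample) was labelled with Cy3, per the labels' protocols. The scanner files hold spot intensities from Agilent Feature Extraction 10.7.3.1, per the file headers, with background subtracted by the authors' software. The deposited log2 matrix equals the log2 processed intensity plus 1 constant per array, and how the constants were chosen is unknown. Each signal was taken as log2 processed intensity minus the 75th percentile of its array, outlier and control spots were left out, and spots of a probe were averaged. The 23132 probes that at least 3 arrays measured well above background were tested with limma 3.58.1 in R 4.3.3, KO minus WT over all 6 livers, with Benjamini-Hochberg adjustment over all of them, and the test was checked on simulated data. There it recovered none of the differences built in when both groups had the pooled spread of KO and WT livers. It recovered most of them at the spread of the KO livers. Genes were named through RefSeq accessions, 1 gene for 26762 of 55681 probes. The normexp alternative used the median spot signal, because the files hold no mean signal. For other lists a gene was represented by its brightest kept probe. All 13 member probes were described, with the list genes lowest in p and the main enzymes and regulators named beside them. A neighbour gene covered by that naming rule is not reported here. Members and lists were chosen with earlier results of these data known. No label says more of the replicates than that they are separate samples, so p-values measure the spread between these samples. The 18 alternatives are given in the closing section.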

Additional observations from a re-analysis of the deposited data

How the results depend on the processing

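Limma called 11 of the 13 probes without WT replicate 3 and 0 under the other 17 alternatives, of which the deposited matrix and the filter on all 6 arrays tested 12 probes and the mean over probes 10 genes. Calls over all kept probes were 1 after normexp, 4 with median scaling, 2 with the filter on all 6 arrays and 7 with the mean over probes. They ranged from 0 to 13123 when 1 liver was left out, 13123 without WT replicate 3. The number of member probes higher at an unadjusted p below 0.05 was 1 after quantile normalization, 1 of 12 with the filter on all 6 arrays, which removed Slc25a15, 0 with the Gapdh probe spread as covariate, 0 without WT replicates 1 and 2, and 0 to 6 when 1 liver was left out. The number lower was 1 after normexp and 0 to 5 when 1 liver was left out. The median difference was 0.63 after quantile normalization and 0.55 with median scaling. Neighbour genes at that p numbered 10 after normexp, 1 with the Gapdh covariate, 2 without WT replicates 1 and 2, and 1 to 24 when 1 liver was left out. Regulators numbered 2, 2 and 2 to 13 under the last 3 of these. Differences turned sign for Ass1 probe A_55_P2004781 to 0.15 (quantile), 0.25 (median scaling), 0.30 (Gapdh covariate), 0.071 (without KO replicate 3), 0.086 (without WT replicate 1) and 0.029 (WT replicate 2 left out). It was -0.28 without WT replicate 3. Gls2 turned to 0.16 (quantile) and 0.0018 (Gapdh covariate), and Otc probe A_51_P126563 to -0.23 (Gapdh covariate). Without WT replicates 1 and 2 the turned values were -0.23 for Nags, -0.44 and 0.13 for Otc, 0.40 for Ass1 probe A_55_P2004781, -0.16 for Asl, 0.16 for Gls2 and 0.028 and 0.038 for Glud1. The causes were not tested. Replicate numbers did not pair the samples (correlations of -0.13, 0.009 and -0.043), and with the replicate block 3 of the 13 were higher at an unadjusted p below 0.05, with 0 called. Otc probe A_51_P126563 lacked a value in the deposited matrix on 1 array. Signal over background limits Slc25a15, which was not well above background in WT replicates 1 and 2.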

Other observations

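Among the 39 neighbour genes, 4 had every KO liver above every WT liver, WT replicate 3 included, against 4.42% of all genes: Tat, Sds, Gldc and Amt. Other genes of the list went the other way, with every KO liver below every WT liver for 6 of the 39, against 21.1% of all genes, among them Prodh and Prodh2, of proline breakdown. Sds, Gldc, Prodh and Prodh2 were named after their values were seen. Sds, serine dehydratase, had 5.67, 5.45 and 5.67 in KO livers, against 3.82, 4.63 and 5.41 in WT livers, a difference of 0.98 (SE 0.44, limma adjusted p = 0.239). Gldc, of the glycine cleavage system as is Amt, had 5.75, 5.24 and 5.01 in KO livers, against 2.22, 4.42 and 4.99 in WT livers, a difference of 1.46 (SE 0.69, limma adjusted p = 0.243). For Gldc, WT replicate 3 was only just below the lowest KO liver. Tat had 8.08, 8.16 and 7.92 in KO livers, against 5.72, 6.89 and 7.39 in WT livers. Amt had -0.24, -0.22 and -0.35 in KO livers, against -5.16, -5.64 and -0.76 in WT livers, and was not well above background in WT replicates 1 and 2. None of the 4 was called by limma.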
